A study of Mus musculus with 36 samples.

Results

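The liver X receptors and the sterol export genes that they control were described in 36 mouse liver RNA-seq libraries. The 9 genes were found by their symbols among the 24421 genes of the counts files, and all 9 were present in each library. They are Nr1h2 and Nr1h3, which encode the receptors LXRβ and LXRα, the sterol transporter genes Abcg5, Abcg8, Abca1 and Abcg1, and Lpcat3, Mylip and Scarb1. Every mouse was a C57BL/6J male, purchased at 7 weeks of age and acclimated for 1 week, and was first fed a CDAHFD for 12 weeks. This high-fat diet lacks choline and supplies its protein as L-amino acids. As a model it is limited in that the liver disease arises within weeks and without obesity. In the first experiment the mice then received an HFD for 2 weeks with weekly subcutaneous injections of Fc at 4.3 mg/kg (n = 10) or of Fc(mML1)B3 at 5 mg/kg (n = 10). In the second experiment they received a standard diet for 10 days with the same doses on days 1, 4 and 7, either of Fc (9 mice) or of Fc(mML1)B3 (7 mice). Fc(mML1)B3 is a human antibody Fc fragment with a cyclic peptide grafted into a loop that binds and activates Met, the receptor of hepatocyte growth factor, and Fc is the same fragment without the peptide. Diet therefore goes together with experiment, number of doses and duration, and these cannot be told apart in any comparison of the diets. On mm10 the genes lie at chr7:44549616-44553965 (Nr1h2), chr2:91184061-91195116 (Nr1h3), chr17:84658234-84682923 (Abcg5), chr17:84676302-84700333 (Abcg8), chr4:53030789-53159895 (Abca1), chr17:31057694-31117981 (Abcg1), chr6:124663104-124704716 (Lpcat3), chr13:45389742-45411940 (Mylip) and chr5:125277087-125341094 (Scarb1), and the counts were over their exons. The mice had no genetic change, and no library of untreated mice or of mice killed before treatment was analysed here.

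LXRα and LXRβ are nuclear receptors that bind DNA together with RXR and are switched on by oxysterols, the oxidised forms of cholesterol. In hepatocytes they raise the genes that move cholesterol out of the cell and out of the body, and those that make fatty acids. ABCG5 and ABCG8 form one obligate heterodimer in the canalicular membrane that pumps cholesterol into bile, whereas ABCA1 and ABCG1 load cholesterol onto HDL. LPCAT3 puts polyunsaturated chains into phospholipids, the protein of Mylip (IDOL) marks lipoprotein receptors for degradation, and SR-BI, the product of Scarb1, takes cholesterol from HDL into the hepatocyte.

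Abcg5 and Abcg8 are neighbours on chromosome 17 that are transcribed away from each other, and the bases between their start sites are shown because the pair shares them and yet differed in the comparisons below. On GRCm38.p6, the assembly of mm10, the RefSeq start sites of Abcg5 (84683011, minus strand) and Abcg8 (84683121, plus strand) leave 109 bases, chr17:84683012-84683120, written here on the plus strand:
Abcg5-Abcg8 intergenic stretch: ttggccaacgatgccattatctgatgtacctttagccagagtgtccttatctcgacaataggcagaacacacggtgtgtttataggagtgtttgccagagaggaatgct
Its GC content was 45.9%, against 53.8% over all promoter windows of the RefSeq table. In the annotation of the counts Abcg5 ends at 84682923, short of its RefSeq start. Another start of Abcg8 is annotated at 84676302, within Abcg5, and 40 exonic bases of both genes coincide. Promoter windows (250 bases before to 50 after a start) were found for 7 of the 9 genes, 9 windows in all, but not for Abcg1 and Scarb1. They were searched on both strands for DR4, the arrangement that LXR and RXR bind, written as AGGTCA or GGGTCA or AGTTCA or GGTTCA, then 4 bases, then another of these. The E-box CACGTG and the sterol element TCACNCCAC, bound by SREBP, were searched in the same way, and none of the 3 motifs contains another. DR4 was in 0 of the 9 windows and in 0.0822% of all 32851 windows, and the sterol element was in 0 of the 9 and in 1.24% of all. The E-box was in 1 of the 9 windows, that of Abca1, and in 7.15% of all. It is in capitals in the Abca1 stretch chr4:53160013-53160066 (minus strand), where it begins 147 bases before the start site:
Abca1 upstream stretch: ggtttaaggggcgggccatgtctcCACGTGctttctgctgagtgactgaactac
These matches describe letters in short windows only, and elements of these genes outside the windows were not searched.

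The 36 libraries held 14949035 to 28466853 counted reads (median 23558194.5), and the fewest reads on any of the 9 genes in any library were 214, on Mylip. Values are CPM, counts of a gene after scaling for library depth with TMM, and levels are compared between genes only as RPKM, CPM per kilobase of exon. Markers of hepatocytes made up most of the marker signal, with 66842.9 to 141003 CPM over 8 genes, and none of the 8 was at 0 in a group. Genes of other liver cells were present too, at 943.711 to 2681.84 CPM over 15 macrophage genes and 603.057 to 1574.87 CPM over 10 stellate cell genes. In such whole-tissue libraries, fewer cells of a type and less RNA per cell cannot be told apart. The S numbers in the names of the files fall in runs, of which the HFD Fc mice had 1 and the HFD Fc(mML1)B3 mice had 2 others (mice 1 to 4 and mice 5 to 10), so that run and protein cannot be told apart under the HFD. In the standard diet experiment, Fc mice 1 to 5 had low S numbers, whereas Fc mice 6 to 9 and all 7 Fc(mML1)B3 mice had S numbers above 100. Values by run are given for genes whose runs did not overlap or whose calls changed.

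Per length of exon, Scarb1 had the highest mean level of the 9 genes in each of the 4 groups, and Mylip and Abcg1 had the lowest. Lpcat3 and Nr1h3 came next to Scarb1 under the HFD, and Abcg5 did in both standard diet groups. In the HFD Fc mice the mean levels were 59.5 ± 5.59 RPKM (SD, n = 10) for Scarb1, 49.98 ± 7.31 RPKM for Lpcat3 and 48.8 ± 5.48 RPKM for Nr1h3. Abcg5 followed at 33.6 ± 6.05 RPKM, then Abcg8 at 21.3 ± 3.76 RPKM, Nr1h2 at 20.2 ± 1.95 RPKM and Abca1 at 11.6 ± 0.748 RPKM, before Mylip at 5.91 ± 0.782 RPKM and Abcg1 at 4.39 ± 0.859 RPKM. In this order Lpcat3 and Nr1h3 differed by less than their SD, as did Abcg8 and Nr1h2, and LXRα mRNA was above LXRβ mRNA in level in all 4 groups. In the standard diet Fc mice Abca1 stood at 22.1 ± 1.962 RPKM (SD, n = 9), close to Nr1h2 at 20.3 ± 1.57 RPKM, and Abcg5 stood at 48.6 ± 5.89 RPKM, with Nr1h3 at 45.1 ± 1.64 RPKM and Lpcat3 at 40.8 ± 3.12 RPKM. Abcg5 and Nr1h3 differed there by less than the SD of Abcg5.

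Under the HFD, 3 of the 9 genes were lower in the Fc(mML1)B3 mice than in the Fc mice at an adjusted p below 0.05, namely Abcg8, Lpcat3 and Nr1h2. Abcg8 was at 0.57 of its Fc level, Lpcat3 at 0.77 and Nr1h2 at 0.82. Over all 13299 genes tested, 6.68% were lower and 8.14% higher. None of the 9 genes was called higher by edgeR, DESeq2 or limma-voom, and 2 were higher at an unadjusted p under 0.05 with each of these tools. At the thresholds the study used for this diet (adjusted p under 0.1 with a fold change over 2), 0 of the 9 genes and 1.34% of all genes were called, since the fold change of each of the 9 stayed under 2. The median log2 fold change was -0.19 over the 9 genes and -0.01 over all genes.

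**Figure D1:**
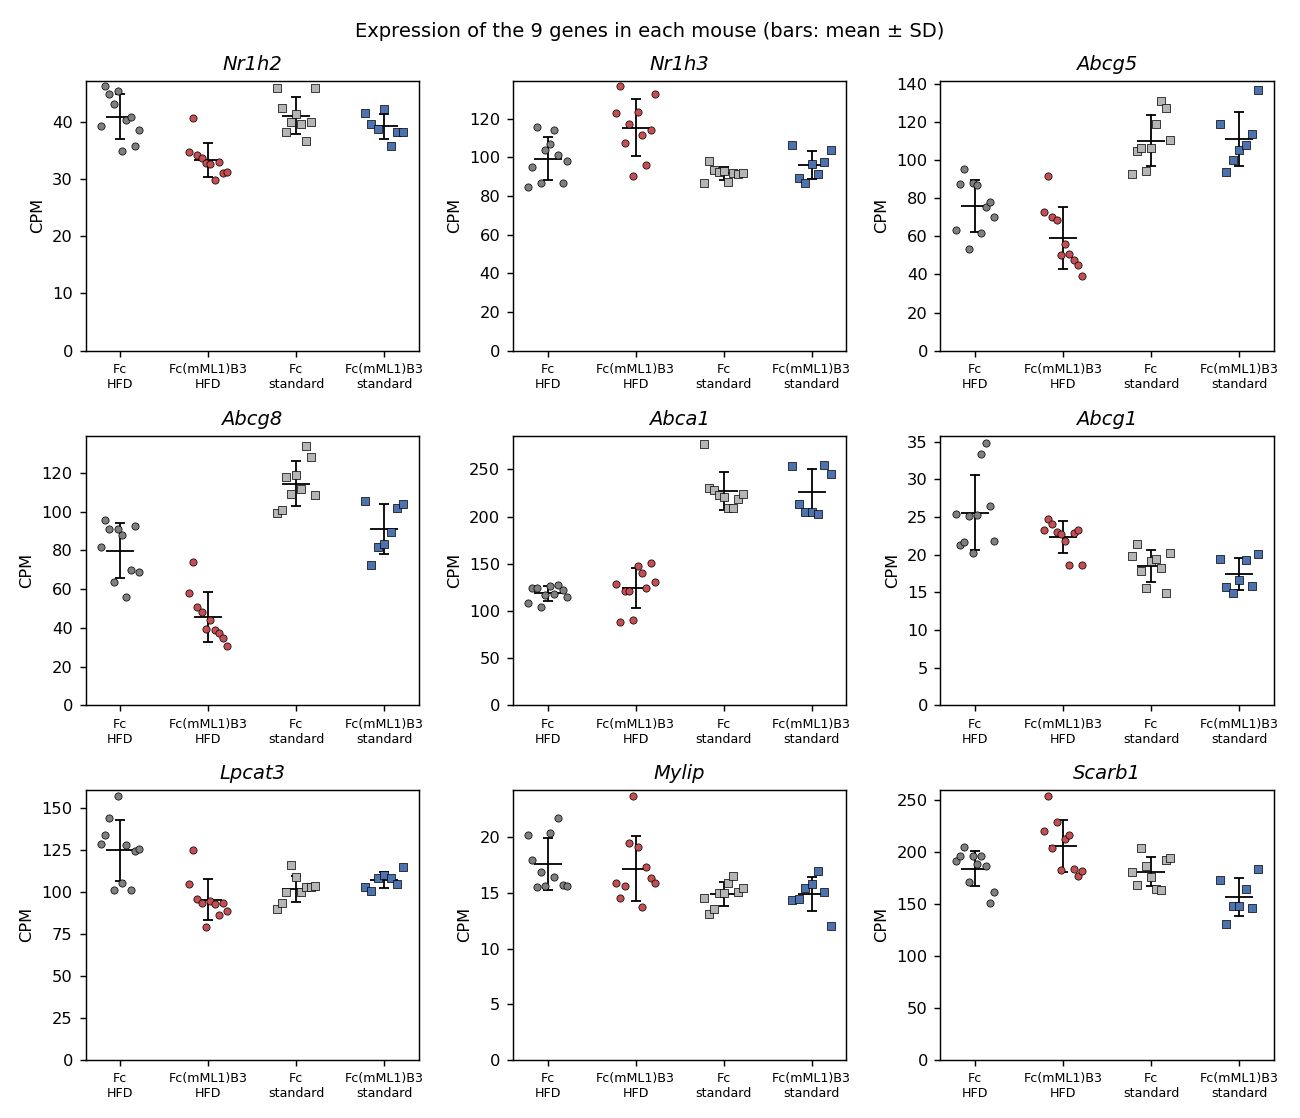
CPM (linear axes from 0) of the 9 genes in each mouse of the 4 groups, with circles for the HFD and squares for the standard diet; black bars give the mean and SD. Abcg8 of the HFD Fc(mML1)B3 mice lies lowest of its 4 groups, at a median of 41.6 CPM against 84.8 CPM in the HFD Fc mice, and Abca1 is about 1.9-fold higher in the standard diet experiment than in the HFD experiment.

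The largest of these changes was in Abcg8, the partner that only works together with Abcg5. Abcg8 ranged from 56.1 to 95.4 CPM (median 84.8) in the HFD Fc mice and from 30.7 to 74.0 CPM (median 41.6) in the Fc(mML1)B3 mice. All 10 Fc(mML1)B3 mice lay under the Fc median and 8 under every Fc mouse, so that the groups overlapped by 2 mice. The log2 fold change was -0.81 (SE 0.13, edgeR adjusted p = 0.000232). Abcg5 ranged from 53.4 to 95.4 CPM (median 76.6) in the Fc mice and from 39.1 to 91.8 CPM (median 53.2) in the Fc(mML1)B3 mice. Only 5 of the 10 Fc(mML1)B3 mice lay under every Fc mouse. Its log2 fold change of -0.36 (95% interval -0.62 to -0.10) did not pass (edgeR, adjusted p = 0.0725).

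Abcg5 and Abcg8 of the HFD Fc(mML1)B3 mice differed between the runs of S numbers. Mice 1 to 4 had 68.5 to 91.8 CPM of Abcg5 and 48.1 to 74.0 CPM of Abcg8, whereas mice 5 to 10 had 39.1 to 55.9 CPM and 30.7 to 44.0 CPM. The ranges of the runs did not overlap for either gene. Against all Fc mice, the log2 fold change of Abcg8 was -0.46 (edgeR, adjusted p = 0.0684) with mice 1 to 4 only and -1.08 (adjusted p = 8.9e-06) with mice 5 to 10 only. For Abcg5 these values were 0.00 and -0.63, so that no fall of Abcg5 was seen with the first run.

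The number of Abcg8 reads per Abcg5 read, a measure within each library that was chosen after the values were seen, separated the groups more clearly than either gene. It ranged from 0.911 to 1.29 (median 1.02) in the HFD Fc mice and from 0.702 to 0.807 (median 0.778) in the HFD Fc(mML1)B3 mice. All 10 Fc(mML1)B3 mice lay under all 10 Fc mice. The mean log2 ratio was lower by 0.45 (difference -0.45, 2-sided permutation test with 100000 resamples, p = 6e-05, 0.00024 adjusted over the 4 comparisons of this ratio). In contrast to the levels, the ratio did not split the runs of the HFD Fc(mML1)B3 mice, with differences of -0.47 for mice 1 to 4 and -0.43 for mice 5 to 10. In the standard diet experiment it ranged from 0.939 to 1.16 (median 1.02) in the Fc mice and from 0.763 to 0.894 (median 0.818) in the Fc(mML1)B3 mice. Again all 7 Fc(mML1)B3 mice lay under all 9 Fc mice, with a difference in the log2 ratio of -0.34 (p = 0.000175 from a 2-sided exact permutation test, which is the lowest its 11440 groupings allow, adjusted 0.00035). By run, the ratio was 0.964 to 1.16 in Fc mice 1 to 5 and 0.939 to 1.02 in Fc mice 6 to 9. Among S numbers above 100 the difference kept its sign but was smaller, as given in the section on processing. Between the diets the ratio differed by -0.01 in the Fc mice (exact permutation test, p = 0.833) and by 0.09 in the Fc(mML1)B3 mice (exact permutation test, p = 0.0283, adjusted 0.0377). The counting ignored strand, and the 40 exonic bases that both genes hold could not be told apart between them.

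**Figure D2:**
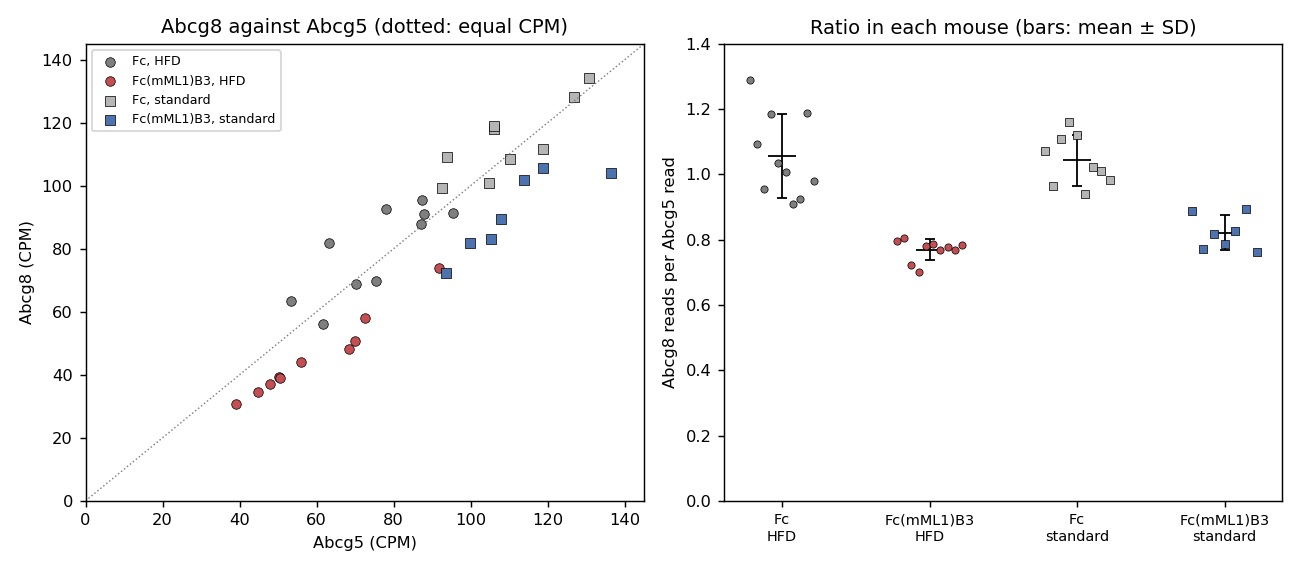
Left, Abcg8 against Abcg5 in CPM for each of the 36 mice, with a dotted line at equal CPM; right, Abcg8 reads per Abcg5 read in each mouse with mean and SD. Fc(mML1)B3 mice of both diets lie under the dotted line, with ratios of 0.702 to 0.894, and every Fc mouse has a ratio of at least 0.911.

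Lpcat3, whose enzyme remodels phospholipids with polyunsaturated chains, was also lower under the HFD. It ranged from 101 to 157 CPM (median 127) in the Fc mice and from 79.1 to 125 CPM (median 93.5) in the Fc(mML1)B3 mice. All 10 Fc(mML1)B3 mice lay under the Fc median and 8 under every Fc mouse. The log2 fold change was -0.39 (SE 0.085, edgeR adjusted p = 0.00323). With Fc(mML1)B3 mice 1 to 4 only it was -0.25 (adjusted p = 0.199), and with mice 5 to 10 only it was -0.48 (adjusted p = 0.00241). The lymphocyte genes were also lower in the HFD Fc(mML1)B3 mice, at 28.6 to 65.8 CPM (median 43.2) over 6 genes in the Fc mice and 21.9 to 47.99 CPM (median 33.6) in the Fc(mML1)B3 mice, with 2 of the 6 called lower and all 6 lower in value. Ptprc held most of the summed level of these 6 genes, with means of 31.6 of 44.7 CPM in the Fc mice and 25.4 of 33.9 CPM in the Fc(mML1)B3 mice. Within the groups this sum had an r of -0.65 with Lpcat3 and -0.59 with Abcg8 over the 36 libraries. Of 3 tested neutrophil genes, 2 were called lower, with a median log2 fold change of -1.27, and the neutrophil sum ranged from 5.39 to 59.2 CPM in the Fc mice and from 4.94 to 11.8 CPM in the Fc(mML1)B3 mice. The part of these cells' genes in the results was not tested. Of the exonic bases of Lpcat3, 289 lie over those of Emg1, and reads there could not be told apart without strand.

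Of the receptors, Nr1h2 was lower and Nr1h3 did not pass. Nr1h2 ranged from 34.8 to 46.2 CPM (median 40.6) in the HFD Fc mice and from 29.8 to 40.6 CPM (median 32.9) in the Fc(mML1)B3 mice. Of the 10 Fc(mML1)B3 mice, 9 lay under every Fc mouse, and mouse 2 was in the middle of the Fc mice. The log2 fold change was -0.29 (SE 0.065, edgeR adjusted p = 0.00349). Its runs did not overlap, at 33.6 to 40.6 CPM in Fc(mML1)B3 mice 1 to 4 and 29.8 to 32.997 CPM in mice 5 to 10. With mice 1 to 4 only the log2 fold change was -0.19 (edgeR adjusted p = 0.211), and with mice 5 to 10 only it was -0.36 (adjusted p = 0.00267). Nr1h3 ranged from 84.8 to 116 CPM (median 99.6) in the Fc mice and from 90.4 to 136.8 CPM (median 116) in the Fc(mML1)B3 mice. The hepatocyte genes had a median sum of 96177.8 CPM in the Fc mice and 113487 CPM in the Fc(mML1)B3 mice, with 1 of 8 called higher. Alb held most of this sum, with means of 83720.6 of 99885.3 CPM in the Fc mice and 92610.9 of 110661 CPM in the Fc(mML1)B3 mice. All 8 endothelial genes were higher in value, 1 of them called, and 8 of 10 stellate cell genes were lower, none called by edgeR (1 at an unadjusted p under 0.05). Within the groups Nr1h3 had an r of 0.72 with the endothelial sum and -0.78 with the stellate cell sum, and the part of these genes in the value of Nr1h3 was not tested. The groups overlapped for Nr1h3, 5 of the 10 Fc(mML1)B3 mice lay above every Fc mouse, and the log2 fold change of 0.22 (95% interval 0.06 to 0.37) did not pass (edgeR, adjusted p = 0.0748).

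Abca1, Abcg1, Mylip and Scarb1 did not pass under the HFD. Abca1 had a log2 fold change of 0.07 (95% interval -0.10 to 0.24), and its 10 Fc(mML1)B3 mice spread more widely (88.7 to 151 CPM) than the Fc mice (104 to 128 CPM), with 5 above and 2 below all of them. Abcg1 ranged from 20.2 to 34.8 CPM in the Fc mice and from 18.6 to 24.8 CPM in the Fc(mML1)B3 mice, all 10 of which lay under the Fc median, and its log2 fold change was -0.19 (95% interval -0.38 to -0.01, edgeR adjusted p = 0.173). The 15 macrophage genes moved alongside Abcg1, at 1247 to 2682 CPM (median 1770) in the Fc mice and 1176 to 2387 CPM (median 1474) in the Fc(mML1)B3 mice, with 13 of 15 lower in value and 7 at an unadjusted p under 0.05, but none called by edgeR. Their part in the value of Abcg1 was not tested. Mylip had a log2 fold change of -0.03 (95% interval -0.22 to 0.15), and Scarb1 one of 0.16 (95% interval 0.02 to 0.31, edgeR adjusted p = 0.147).

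The clock genes Arntl and Dbp, both chosen after their values were seen, did not overlap between the HFD groups, and their part in the changes of the 9 genes was not tested. The time of day at which livers were collected is not given in the sources used here. Arntl, a core clock gene, ranged from 0.619 to 2.09 CPM in the HFD Fc mice and from 6.68 to 28.7 CPM in the HFD Fc(mML1)B3 mice. Dbp, a clock output gene, ranged from 72.3 to 132.4 CPM in the HFD Fc mice and from 3.13 to 25.2 CPM in the Fc(mML1)B3 mice. Within the Fc(mML1)B3 mice, the median of Arntl was 12.0 CPM in mice 1 to 4 and 25.0 CPM in mice 5 to 10. In the standard diet experiment both genes overlapped between the groups, with Arntl at 2.30 to 6.45 CPM in the Fc mice and 0.918 to 3.39 CPM in the Fc(mML1)B3 mice.

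On the standard diet, Abcg8 and Scarb1, 2 of the 9 genes, were lower with Fc(mML1)B3, at 0.80 and 0.86 of their Fc levels. Over all 13570 genes tested, 7.55% were lower and 8.56% higher. None of the 9 genes was called higher by edgeR, DESeq2 or limma-voom, and 0 were higher at an unadjusted p under 0.05. More than one pair of thresholds is stated for this diet in the study. At the looser fold limit (adjusted p under 0.05 with a fold change over 1.5), 0 of the 9 genes and 2.36% of all genes were called. The fold change of each of the 9 stayed under 1.5, so that none could pass the other pair (adjusted p under 0.1 with a fold change over 2) either. The median log2 fold change was -0.0067 over the 9 genes and -0.011 over all genes.

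Abcg8 was thus the one gene of the 9 called lower in both experiments. On the standard diet it ranged from 99.2 to 134.1 CPM (median 112) in the Fc mice and from 72.2 to 106 CPM (median 89.3) in the Fc(mML1)B3 mice. All 7 Fc(mML1)B3 mice lay under the Fc median and 4 under every Fc mouse. The log2 fold change was -0.33 (SE 0.080, edgeR adjusted p = 0.00797). Abcg5 had 92.6 to 130.9 CPM in the Fc mice and 93.6 to 136 CPM in the Fc(mML1)B3 mice, with a log2 fold change of 0.01 (95% interval -0.15 to 0.16). The runs of its Fc mice did not overlap, at 92.6 to 106 CPM (median 105) in mice 1 to 5 and 110 to 130.9 CPM (median 123) in mice 6 to 9. Among S numbers above 100 the log2 fold change of Abcg5 was -0.14 (SE 0.087, edgeR adjusted p = 0.369), and that of Abcg8 was -0.41 (SE 0.0996, adjusted p = 0.0231). Scarb1, the HDL receptor gene, ranged from 164 to 204 CPM (median 181) in the Fc mice and from 131.1 to 184 CPM (median 149) in the Fc(mML1)B3 mice. Of the 7 Fc(mML1)B3 mice, 6 lay under the Fc median and 4 under every Fc mouse, with a log2 fold change of -0.21 (SE 0.066, edgeR adjusted p = 0.0318). The call of Scarb1 was lost without any 1 of 6 libraries (Fc mice 3 and 9, Fc(mML1)B3 mice 2, 3, 4 and 6), with a highest adjusted p of 0.0711, and among S numbers above 100 (log2 fold change -0.19, adjusted p = 0.192). Neither gene passed when all 36 libraries shared one estimate of the spread (adjusted p = 0.140 for Abcg8 and 0.0973 for Scarb1).

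Marker genes of other cells moved in both directions beside these changes. Of 10 stellate cell genes 9 were lower, 2 of them called and 7 at an unadjusted p under 0.05, with summed levels of 693 to 1024 CPM in the Fc mice and 603 to 790.2 CPM in the Fc(mML1)B3 mice. All 6 cholangiocyte genes were lower, 1 of them called, at 228 to 498 CPM and 179 to 409 CPM, and 12 of 15 macrophage genes were lower, 1 of them called. In contrast, 5 of 6 lymphocyte genes and 6 of 8 hepatocyte genes were higher in value, with 0 and 1 called by edgeR (2 lymphocyte genes at an unadjusted p under 0.05), and 4 of 8 endothelial genes lay on each side. In the cholangiocyte sum of the Fc mice (mean 342 CPM), Krt19, Krt7, Epcam and Cftr had means of only 5.82, 2.94, 11.4 and 1.28 CPM. Most of that sum thus came from Sox9 and Spp1, the other genes of this list. The part of all these marker genes in the results for Abcg8 and Scarb1 was not tested.

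The other 7 genes had log2 fold changes between -0.09 (Abcg1) and 0.07 (Lpcat3) under the standard diet. For the receptors the 95% intervals were -0.17 to 0.03 for Nr1h2 and -0.03 to 0.15 for Nr1h3. Lpcat3, which fell under the HFD, ranged here from 89.7 to 116 CPM in the Fc mice and from 101 to 115 CPM in the Fc(mML1)B3 mice, and its interval was -0.03 to 0.17. Abca1 had 209 to 277 CPM in the Fc mice and 203 to 255 CPM in the Fc(mML1)B3 mice, with an interval of -0.13 to 0.12, and that of Mylip was -0.14 to 0.12. Mylip too did not overlap between the runs of Fc mice, at 13.1 to 15.03 CPM in mice 1 to 5 and 15.1 to 16.5 CPM in mice 6 to 9, and its log2 fold change among S numbers above 100 was -0.09 (edgeR adjusted p = 0.586).

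Over all 36 libraries, the response to Fc(mML1)B3 was compared between the diets, and 2 of the 9 genes passed. Over 14105 genes tested, 4.66% had a higher value under the standard diet and 4.4% a lower one. The effect on Lpcat3 was higher by 0.47 under the standard diet on the log2 scale (SE 0.10, edgeR adjusted p = 0.00173), with -0.39 for the HFD and 0.07 for the standard diet. The lymphocyte genes differed in the same direction, with all 6 above 0, 3 called higher and a median of 1.00 on the log2 scale. Their sum had an r of -0.65 with Lpcat3 within the groups, and their part in the value of Lpcat3 was not tested. The effect on Scarb1 differed by -0.36 (SE 0.099, edgeR adjusted p = 0.0152), from 0.16 under the HFD to -0.21 under the standard diet. Of 8 endothelial genes 7 were below 0 and 1 above, and of 8 hepatocyte genes 6 were below 0 and 2 above. In each of these lists 1 gene was called lower, and their part in the value of Scarb1 was not tested. For Abcg8 the difference was 0.50 (95% interval 0.16 to 0.83, adjusted p = 0.0587) and for Nr1h2 0.24 (95% interval 0.08 to 0.40, adjusted p = 0.0577), neither of which passed. For Abca1 it was -0.06 (95% interval -0.29 to 0.16).

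**Figure D3:**
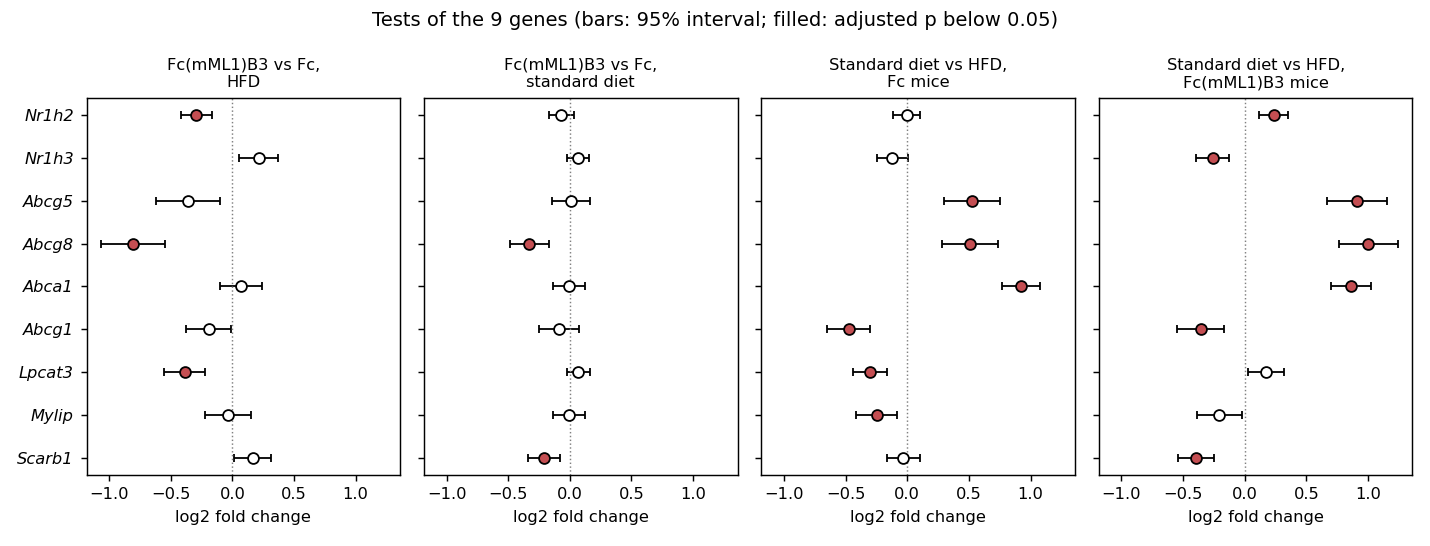
Log2 fold change of the 9 genes with its 95% interval in 4 comparisons from edgeR, with filled points for an adjusted p below 0.05. Abcg8 is the only gene filled in all 4 panels, at -0.81, -0.33, 0.51 and 1.00.

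The levels of several transporters also differed between the experiments. These comparisons share their mice with those above. In the Fc mice, 3 of the 9 genes were higher under the standard diet than under the HFD (Abca1, Abcg5 and Abcg8) and 3 were lower (Abcg1, Lpcat3 and Mylip), against 23.3% higher and 24.6% lower among all genes. In the Fc(mML1)B3 mice, 4 were higher (Abcg8, Abcg5, Abca1 and Nr1h2) and 3 lower (Scarb1, Abcg1 and Nr1h3), against 20.7% and 17.9%. Diet cannot be told apart here from experiment, doses and duration. Marker genes differed as well in the Fc mice, where 3 of 8 hepatocyte genes were called higher (all 8 higher in value), and 6 of 10 stellate cell, 5 of 6 lymphocyte and 2 of 6 cholangiocyte genes were called lower. In the Fc(mML1)B3 mice 2 of 8 hepatocyte genes were called higher, and 5 of 10 stellate cell, 1 of 6 lymphocyte and 2 of 6 cholangiocyte genes were called lower. Moreover, 1 stellate cell gene in each of these comparisons and 1 lymphocyte gene in the latter were called higher. The part of all these genes in the values of the transporters was not tested.

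Abca1, the gatekeeper of HDL formation, differed most in the Fc mice. It ranged from 104 to 128 CPM (median 120) in the HFD Fc mice and from 209 to 277 CPM (median 222) in the standard diet Fc mice, with no overlap. The log2 fold change was 0.92 (SE 0.078, edgeR adjusted p = 7e-12). In the Fc(mML1)B3 mice Abca1 ranged from 88.7 to 151 CPM and from 203 to 255 CPM, again with no overlap, and the log2 fold change was 0.86 (SE 0.083, edgeR adjusted p = 2.7e-10). Abcg5 and Abcg8 were higher by 0.53 and 0.51 on the log2 scale in the Fc mice (SE 0.12 for each, edgeR adjusted p = 0.000298 and 0.000424). In the Fc(mML1)B3 mice they were higher by 0.91 and 1.00 (SE 0.12 for each, edgeR adjusted p = 2.7e-07 and 4.2e-08). All 9 standard diet Fc mice lay above the 10 HFD Fc mice for Abcg8 and 7 of the 9 for Abcg5.

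Abcg1, the other HDL loader, went the opposite way. Its log2 fold change was -0.48 in the Fc mice (SE 0.090, edgeR adjusted p = 4.7e-05), from 20.2 to 34.8 CPM under the HFD to 14.9 to 21.4 CPM under the standard diet, and -0.36 in the Fc(mML1)B3 mice (SE 0.097, edgeR adjusted p = 0.00367). Of the 9 standard diet Fc mice, 7 lay under every HFD Fc mouse. The macrophage genes were lower too, at 944 to 1607 CPM (median 1400) in the standard diet Fc mice and 971 to 1351 CPM (median 1189) in the standard diet Fc(mML1)B3 mice. Of these 15 genes, edgeR called 8 lower in the Fc mice and 4 in the Fc(mML1)B3 mice, and their part in the values of Abcg1 was not tested.

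Lpcat3 and Scarb1 differed between the diets in 1 group of mice each. Lpcat3 was lower under the standard diet in the Fc mice (log2 fold change -0.30, SE 0.070, edgeR adjusted p = 0.000587) and had 0.17 in the Fc(mML1)B3 mice (95% interval 0.02 to 0.32, adjusted p = 0.0676). Scarb1 had -0.03 in the Fc mice (95% interval -0.17 to 0.10) and was lower in the Fc(mML1)B3 mice (-0.39, SE 0.073, edgeR adjusted p = 4.7e-05), where 6 of 7 standard diet mice lay under every HFD mouse. The receptors showed -0.00 for Nr1h2 and -0.12 for Nr1h3 in the Fc mice, where neither passed, whereas in the Fc(mML1)B3 mice Nr1h2 was higher by 0.24 (SE 0.060, edgeR adjusted p = 0.00176) and Nr1h3 lower (-0.26, SE 0.069, adjusted p = 0.00288). Mylip had -0.25 in the Fc mice (SE 0.085, edgeR adjusted p = 0.0163) and -0.21 in the Fc(mML1)B3 mice (adjusted p = 0.0734), where DESeq2 called it lower (adjusted p = 0.0445).

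The genes around the receptors were then read from 8 lists of the pathway. Under the HFD 8.14% of all genes were higher and 6.68% lower, and with the standard diet 8.56% were higher and 7.55% lower. Among 13 partners and co-regulators of LXR, 0 passed under the HFD with edgeR (1 at an unadjusted p under 0.05), and 2 were lower under the standard diet. These were the coactivator gene Ncoa2 (log2 fold change -0.25, edgeR adjusted p = 0.00405) and the corepressor gene Ncor1 (-0.15, adjusted p = 0.0296). Among 18 other established LXR targets in lipid metabolism, 1 was lower under the HFD and none higher, against 6.68% and 8.14% of all genes. The median log2 fold change was -0.11 over the 18 and -0.01 over all genes. One of these targets passed. The gene called lower was Pltp, the phospholipid transfer protein, with mean levels of 64.3 CPM under Fc (SD 9.42, n = 10) and 48.3 CPM under Fc(mML1)B3 (SD 6.57, n = 10) (log2 fold change -0.41, edgeR adjusted p = 0.00311). On the standard diet, 5 of the 18 were higher and 1 lower, against 8.56% and 7.55% of all genes. Cyp7a1, the rate-limiting enzyme of bile acid synthesis, rose from a mean of 91.5 CPM (SD 25.1, n = 9) to 302 CPM (SD 104, n = 7), by 1.72 on the log2 scale (edgeR adjusted p = 3.8e-06). Pnpla3 and the fatty acid synthase gene Fasn rose by 1.52 and 0.76, and the lipoprotein lipase gene Lpl fell by 0.76 on the log2 scale (edgeR adjusted p = 0.00972, 0.00433 and 1.1e-05). The effects on Cyp7a1 and on the lipogenic factor gene Srebf1 differed between the diets, by 2.03 and 0.76 (edgeR adjusted p = 4.3e-05 and 0.0046). On the standard diet Pnpla3 was low and scattered, at a mean of 1.38 CPM (SD 0.447, n = 9) under Fc and 3.99 CPM (SD 3.11, n = 7) under Fc(mML1)B3. Of the 18 targets, 12 had a log2 fold change above 0 on the standard diet and 6 below 0. Any link of these targets to the lower Abcg8 was not tested.

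Of the 9 tested genes that make or clear oxysterols, 3 were higher and 1 lower under the HFD, where 8.14% and 6.68% of all genes were. Cyp7b1, which clears oxysterols by hydroxylation, rose from a mean of 48.1 CPM (SD 17.7, n = 10) to 91.3 CPM (SD 29.7, n = 10), by 0.92 on the log2 scale (edgeR adjusted p = 0.00426). Akr1d1 and Cyp39a1, both of bile acid synthesis, rose by 0.46 and 0.38, and Dhcr7, the last step of cholesterol synthesis, fell by 0.54 (edgeR adjusted p = 0.0173, 0.045 and 0.0436). On the standard diet, Akr1d1 was higher by 0.52 and Hsd3b7 was lower (-0.64, edgeR adjusted p = 3.8e-06).

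Among 14 genes of sterol storage and movement within cells, 3 were lower under the HFD and none higher, against 6.68% lower and 8.14% higher over all genes. Npc1, which releases cholesterol from lysosomes, fell from a mean of 119 CPM (n = 10, SD 15.3) to 83.1 CPM (n = 10, SD 7.06), with -0.51 on the log2 scale (edgeR adjusted p = 4.4e-05). Soat2, which esterifies cholesterol, and Nceh1, which hydrolyses the esters, were lower by -0.39 and -0.33 (edgeR adjusted p = 0.00196 and 0.0111). On the standard diet 3 of the 14 were higher (Stard5, Osbpl2 and Nceh1, by 0.33, 0.31 and 0.23) and Soat2 was lower (-0.29, edgeR adjusted p = 0.0175), against 8.56% higher and 7.55% lower over all genes. Of 8 tested lipoprotein receptor and sterol uptake genes, 0 passed under the HFD with edgeR (1 at an unadjusted p under 0.05).

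**Figure D4:**
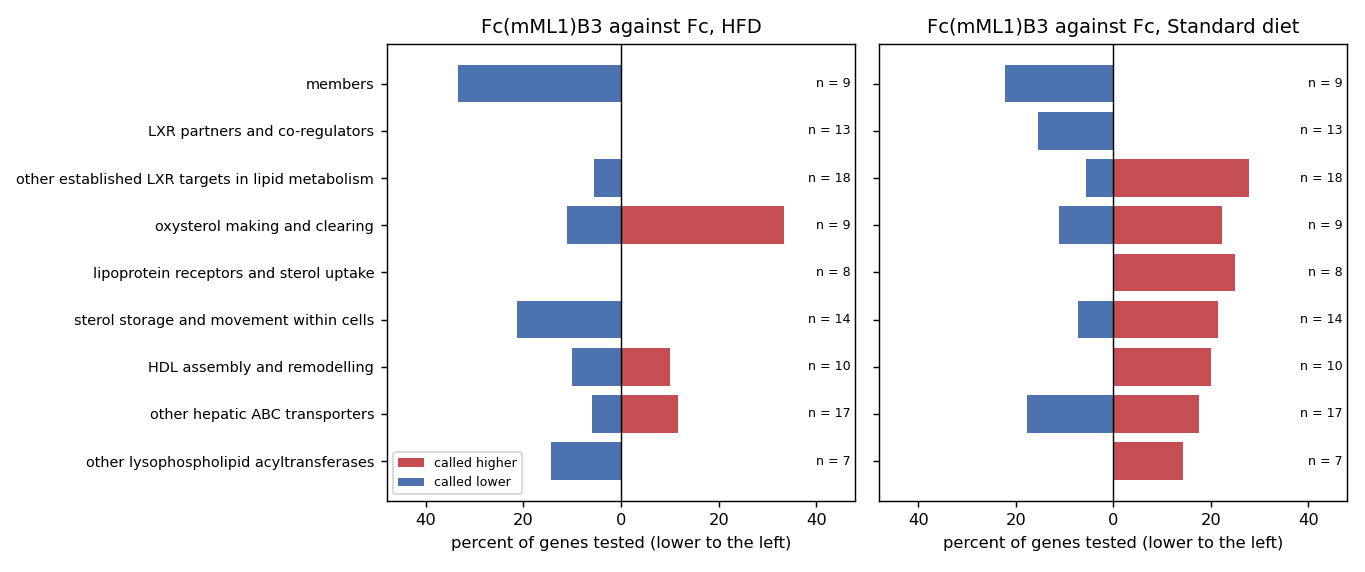
Percent of tested genes called higher (right) or lower (left) by edgeR in the Fc(mML1)B3 mice for the 9 genes (members) and 8 lists of the pathway, with the number tested at the right edge of each panel. Of the 9 genes, 3 are lower in the HFD panel and 2 in the standard diet panel. Of the 18 other LXR targets, 1 is lower in the HFD panel, and 5 are higher and 1 lower in the standard diet panel.

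HDL assembly genes and other hepatic ABC transporters were read beside the shares of all genes, and their counts were not tested against these shares. Over all genes, 8.14% were higher and 6.68% lower under the HFD, and 8.56% were higher and 7.55% lower with the standard diet. Of 10 HDL genes, Bmp1 was higher under the HFD (log2 fold change 0.62, edgeR adjusted p = 0.000142) and Pltp lower. The endothelial lipase gene Lipg and Apoa4 were higher under the standard diet by 0.94 and 0.38, and 0 of the 10 were lower there. Of 17 tested ABC transporters, Abcg2 and Abca8a were higher under the HFD by 0.56 and 0.26 and Abcb1a was lower (-0.66, edgeR adjusted p = 0.0192). With the standard diet 3 were higher and 3 lower, among them Abcb11, the bile salt export pump, which fell from a mean of 642 CPM (n = 9, SD 73.8) to 450 CPM (n = 7, SD 40.6), with -0.51 on the log2 scale (edgeR adjusted p = 6.5e-05). Of 7 tested other lysophospholipid acyltransferases, Lclat1 was lower under the HFD (-0.21, edgeR adjusted p = 0.0476) and Lpgat1 higher under the standard diet (0.26, adjusted p = 0.0126). Between the diets, 12 of the 17 ABC transporters were higher under the standard diet in the Fc mice and 12 in the Fc(mML1)B3 mice, and 1 was lower in each. Over all genes, 23.3% were higher and 24.6% lower in the Fc mice, and 20.7% and 17.9% in the Fc(mML1)B3 mice. Abcc2, which exports conjugates into bile, was higher by 1.25 and 1.27 (edgeR adjusted p = 1.2e-13 and 6.9e-13). Of the 13 partners and co-regulators, 8 were higher and 2 lower in the Fc mice, and 7 were higher and 1 lower in the Fc(mML1)B3 mice.

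Within the groups, Abcg5 and Abcg8 varied together from mouse to mouse more closely than any other pair of the 9 genes. After the mean of each group was subtracted, Pearson's r of their log2 CPM was 0.91 over the 36 libraries, and it was 0.79 to 0.99 within the single groups. Abcg8 and Lpcat3 had 0.58, Abcg5 and Scarb1 0.57, whereas Abca1 had -0.01 with Abcg1. The pooled r of Abca1 with Abcg5, -0.16, stood over single-group values of opposite sign, with 0.79 in the HFD Fc mice, -0.47 in the HFD Fc(mML1)B3 mice, -0.71 in the standard diet Fc mice and 0.71 in the standard diet Fc(mML1)B3 mice. Nr1h2 and Nr1h3 had 0.22. These values are descriptions, since the libraries share the scaling and any run of S numbers.

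Over 12486 genes and the same 36 libraries, the gene most like both Abcg5 and Abcg8 was Ngef, with r of 0.83 and 0.84. For Nr1h3 it was Etfb (0.88), followed by Idh3b and Serpina1b (each 0.88). The summed hepatocyte genes, most of whose signal was Alb, had an r of 0.83 with Nr1h3. For Abcg1 they were Syk, Laptm5 and Vasp (0.81, 0.79 and 0.78), and the summed macrophage genes had an r of 0.64 with Abcg1. For Lpcat3 they were Pdk2, Habp4 and Stard5 (0.85, 0.82 and 0.80), and for Abca1 Gm4951, Hnrnpu and Atf1 (0.78, 0.76 and 0.76). The closest gene to Scarb1 was Cyp4f15 (0.75), that to Mylip was Dclk1 (0.71), and that to Nr1h2 was Psmg4 (0.68). Of the 9 genes, Nr1h3 had the highest r with the summed hepatocyte genes and Abcg1 that with the summed macrophage genes.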

How the data were processed

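Each library was 1 mouse, grouped from the sample titles. The values are counts, which the authors made before deposit. Per the labels they used fastp, Bowtie2 2.4.5, STAR 2.7.10a and featureCounts (Subread 2.0.3) on mm10. Strand was ignored, and each end of a pair was counted. Over 147 pairs of libraries of 1 group, the lowest chi-square per degree of freedom was 6.06, so none was a duplicate.

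From the deposited counts, each diet was fitted apart with edgeR 4.0.16 in R 4.3.3 (quasi-likelihood F-test, TMM, filterByExpr, Benjamini-Hochberg over all genes tested, called at an adjusted p below 0.05). The diets were compared in 1 fit of all 36 libraries. Standard errors were taken as the absolute log2 fold change over root F and used for 95% intervals. The fits were tested on simulated data. The members, lists and motifs were chosen with earlier results of these data known. From each list up to 3 called genes a direction and comparison with the largest fold change could be named, and for each member the 3 genes most alike in log2 CPM (prior count 2) with at least 1 CPM on average. The alternatives were DESeq2 1.42.0, limma-voom (limma 3.58.1), other scalings, filters and thresholds, runs of S numbers, leaving out each library, and a block on mouse number. The ratio of Abcg8 to Abcg5 reads and a fit without Fc mice 7 and 8 of the HFD were added after seeing the data. Same-numbered mice came from no shared source in the labels. Some genes of the lists are not reported here.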

Additional observations from a re-analysis of the deposited data

Results flagged for a closer look

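Lpcat3 responded differently to Fc(mML1)B3 in the 2 diets, by 0.47 on the log2 scale (edgeR's interaction term over 36 libraries, adjusted p = 0.00173), with log2 fold changes of -0.39 for the HFD and 0.07 for the standard diet. For Scarb1 the effects differed by -0.36 (adjusted p = 0.0152), with 0.16 for the HFD and -0.21 for the standard diet. Diet cannot be told apart from experiment, doses and duration in these values. In their HFD part, protein cannot be told apart from the run of S numbers either.

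Among 36 groups of values (9 genes in 4 groups), 2 held a mouse far from the others of its group, and chance alone sets apart about 1 group in 20. Nr1h2 was at 40.6 CPM in Fc(mML1)B3 mouse 2 under the HFD, against at most 34.6 CPM in the other 9 mice. Abca1 was at 277 CPM in Fc mouse 1 under the standard diet, against at most 230 CPM in the other 8 mice.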

How the results depend on the processing

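Under the HFD, 3 of the 9 genes were called, and the count was 5 at an adjusted p below 0.1 and with all 36 libraries in 1 fit, and 0 at the study's thresholds and with Fc(mML1)B3 mice 1 to 4 only. Under the standard diet, 2 were called, and the count was 1 at an adjusted p below 0.01, with the replicate block and among S numbers above 100, and 0 with a fold change over 1.5 required and in the fit of all 36 libraries. For the difference between the diets, 2 were called, and the count was 4 at an adjusted p below 0.1 and with library totals without TMM, and 1 at an adjusted p below 0.01. With each library left out in turn, the counts were 3 to 4 (HFD), 1 to 2 (standard diet), 2 to 4 (difference between the diets), 6 to 6 (Fc mice) and 7 to 9 (Fc(mML1)B3 mice). Under the HFD, Nr1h3 also passed without Fc mouse 3 or 7 or Fc(mML1)B3 mouse 5 or 8 (lowest adjusted p = 0.0258), and Abcg5 without Fc(mML1)B3 mouse 2 (0.0148). In the difference between the diets, Nr1h2 passed without HFD Fc mouse 6 or 9 or HFD Fc(mML1)B3 mouse 2, and Abcg8 without HFD Fc mouse 7 or HFD Fc(mML1)B3 mouse 1 or 2. Between the diets in the Fc(mML1)B3 mice, Lpcat3 passed without HFD mouse 2, and Mylip without HFD mouse 2 or 7 or standard diet mouse 5. Leaving out HFD Fc mice 7 and 8 kept the count at 3. The Abcg8 to Abcg5 ratio kept its direction, at -0.47 to -0.42 (HFD) and -0.36 to -0.32 (standard diet) with each library left out and -0.27 among S numbers above 100. The causes were not tested.

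The sign turned for these values, none of which was called. Under the HFD these were Abcg5 (0.00364) and Abca1 (-0.0376) with mice 1 to 4 only, Abca1 with library totals (-0.0269), and Mylip with mice 5 to 10 only (0.0180) and without Fc mice 7 and 8 (0.00195). Under the standard diet they were Abcg5 with upper-quartile scaling (-0.00428), library totals (-0.0309) and S numbers above 100 (-0.138), Abca1 without a filter (0.000349) and among S numbers above 100 (0.0654), and Mylip without a filter (0.000280) and with the replicate block (0.00172). Between the diets, Nr1h2 in the Fc mice turned with the 0.5 CPM filter (0.0122) and without a filter (0.00615). With each library left out, the ranges were -0.0972 to 0.00730 for Mylip under the HFD, -0.0474 to 0.0447 for Abcg5, -0.0382 to 0.0306 for Abca1 and -0.0400 to 0.0395 for Mylip under the standard diet, -0.00613 to 0.111 for Mylip in the difference between the diets, and -0.0285 to 0.0203 for Nr1h2 between the diets in the Fc mice.

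Same-numbered mice did not deviate together (r of their deviations -0.62 to 0.26 under the HFD and -0.16 to 0.00 under the standard diet), so the block is no pairing. Under the block Scarb1 lost its standard diet call (log2 fold change -0.19, adjusted p = 0.127), Abcg8 gained that of the difference between the diets (0.52, adjusted p = 0.0378), and Nr1h2 lost its diet call in the Fc(mML1)B3 mice (0.19, adjusted p = 0.0511). Low counts do not limit these 9 genes, all of which had at least 214 reads in every library.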
